A study of Drosophila melanogaster with 3 samples.

Results

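The genes described here are 8 genes of *Drosophila melanogaster* whose products act on chromatin or as cofactors of transcription: nej, osa, tara, Chro, Tlk, Tet, sbb and jing. They were picked for the number or the strength of the peaks of Methoprene-tolerant (Met) in and near them, so their peak numbers, densities, spacing and ranks are descriptions and carry no test. They are 8 of 13945 protein-coding genes on the 6 major chromosome arms. Each gene was taken as its body plus 2 kb upstream of its 5′ end, and a peak was counted where its summit lay. Together the 8 regions, 469.7 kb in all, held 131 of the 8513 peaks that the authors kept after a reproducibility threshold (irreproducible discovery rate, IDR).

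Met binding was measured by ChIP-seq in 1 group of 3 biological replicates, with no second condition. Every sample came from whole white prepupae of pooled sexes and unknown age, from a single transgenic line with GFP fused to the C-terminus of Met. The tagged protein was precipitated with an antibody to GFP from chromatin sonicated to 200 to 800 bp, so the peaks average over all tissues of the animal and show a tagged protein. The labels give neither the promoter of the transgene nor whether the untagged Met gene was still present. Peak lists contain no reads, so depth is unknown, and the signal values are the authors' own and are ranked only within a list. Rank 1 is the strongest peak.

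Met is a bHLH-PAS transcription factor that binds juvenile hormone and, with a bHLH-PAS partner, activates genes through E-box-like DNA elements. The white prepupa stands at the start of metamorphosis, which juvenile hormone holds back in larvae. Chromatin cofactors do not as a rule read DNA sequence themselves. They acetylate histones, slide nucleosomes, or bridge transcription factors to such enzymes, and so set how strongly a bound factor turns a gene up or down.

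The sequences below show what lay under the strongest peak of 5 of the genes, under 2 peaks with the palindromic E-box CACGTG, and between the start sites of Chro and its divergent neighbour Ssl1. Each of the 7 peak windows covers 101 bp centred on a summit, and all are written 5′ to 3′ on the strand of the gene, from the RefSeq Release 6 (dm6) assembly. Capitals mark the E-box, the variants CAGCTG and, in either orientation, CACCTG, the GAGA element GAGAG and the GATA motif AGATAA, on either strand; lower case marks all other bases.
osa, rank 13, chr3R:17704362-17704462, minus strand: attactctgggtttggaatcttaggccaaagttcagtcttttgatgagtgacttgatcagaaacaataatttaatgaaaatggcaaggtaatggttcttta
Tet, rank 70, chr3L:2824161-2824261, minus strand: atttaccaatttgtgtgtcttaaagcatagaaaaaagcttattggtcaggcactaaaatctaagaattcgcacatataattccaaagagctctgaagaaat
Tlk, rank 71, chrX:3742168-3742268, plus strand: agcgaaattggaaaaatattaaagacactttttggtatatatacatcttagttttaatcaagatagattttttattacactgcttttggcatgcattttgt
nej, rank 531, chrX:9687691-9687791, minus strand: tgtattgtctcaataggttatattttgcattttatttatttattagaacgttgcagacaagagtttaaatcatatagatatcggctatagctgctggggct
tara, rank 627, chr3R:16236950-16237050, plus strand: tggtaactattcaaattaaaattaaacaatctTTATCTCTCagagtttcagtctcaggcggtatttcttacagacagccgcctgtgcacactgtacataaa
Tet, peak with an E-box, rank 4546, chr3L:2795878-2795978, minus strand: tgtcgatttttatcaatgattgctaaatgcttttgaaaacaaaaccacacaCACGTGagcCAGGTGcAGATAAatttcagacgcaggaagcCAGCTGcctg
Tlk, peak with an E-box, rank 3346, chrX:3777395-3777495, plus strand: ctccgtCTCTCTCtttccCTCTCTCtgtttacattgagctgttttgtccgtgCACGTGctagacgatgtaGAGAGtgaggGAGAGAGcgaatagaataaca
Chro, between its first TSS and that of Ssl1, chr3L:22878985-22879088, minus strand: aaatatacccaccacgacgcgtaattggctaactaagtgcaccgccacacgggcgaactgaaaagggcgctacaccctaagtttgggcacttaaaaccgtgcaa

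None of the windows under the strongest peaks of the 8 genes held an E-box CACGTG or a C-box CACGCG. Over the whole IDR list 8327 of 8513 windows held neither, so this does not set these peaks apart. Mean G+C in the windows of the strongest peaks was 32.8%. Of these 8 summits, 6 had less G+C than the sequence 500 bp to each side. The exceptions were nej, with 31.7% against 27.2% in its flanks, and jing, with 44.6% against 43.1%. Among all IDR peaks 79.5% of summits had less G+C than their flanks. Both printed E-box windows came from weaker peaks. G+C was 42.6% in Tet, against 49.5% in its flanks, and 47.5% in Tlk, against 35.6%. In each window the centre of the E-box lay 4 bp from the summit. The other E-box peak of the 8 genes, in jing (rank 4846, not printed), had lower G+C than both. Its G+C was 29.7%, below the 46% of its flanks, as in Tet but not in Tlk. Its E-box lay further out, centred at -22 bp from the summit. The 104 bp between the Chro and Ssl1 start sites had 51% G+C.

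Peak number varied from 1 to 30 among the genes. All 8 genes had at least 1 IDR peak, as did 4006 of the 13945 coding genes (28.7%). Of the 8, 5 had 20 or more (sbb 30, Tet 25, Tlk 23, tara 22 and jing 20), as did 11 coding genes in all (0.0789%), and these 5 held 120 of the 131 peaks. The other genes were osa with 8, nej with 2 and Chro with 1. The genes were chosen on these values, so the shares are given only as background. The 8 genes are also long, with a median region of 54200 bp against 4166 bp over all coding genes. Among the coding genes with regions over 50 kb, 10 of 336 had 20 or more peaks (2.98%), and Tet, Tlk, sbb and jing are 4 of those 10. Among regions of 20 to 50 kb, 1 of 807 did (0.124%), and that gene is tara. At least 1 peak was found in 69.5% of the genes of that shorter class and in 71.7% of those over 50 kb.

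**Figure D1:**
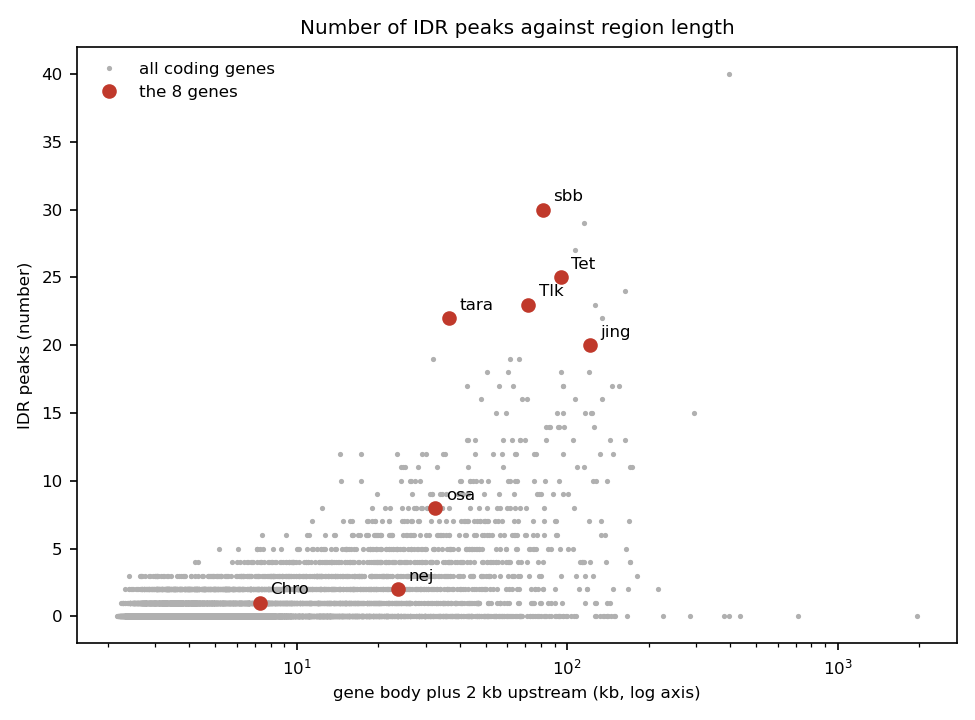
Number of IDR peaks (vertical axis) against the length of the gene body plus 2 kb upstream (kb, log axis) for all 13945 coding genes in grey and the 8 genes in red. The points for sbb, Tet, Tlk, tara and jing lie between 20 and 30 peaks, and those for osa, nej and Chro, at 8, 2 and 1, lie among grey points of similar length.

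The peaks of the 8 genes were mostly in introns. Introns held 120 of the 131 summits, 8 lay in the 2 kb upstream and 3 in exons, and each of the 3 exonic summits was within 500 bp of a transcription start site (TSS). A summit within 500 bp of any annotated TSS was counted as near a promoter. This held for 16 of the 131 peaks (12.2%) and for 2776 of all 8513 IDR peaks (32.6%). When the 8513 strongest peaks of each replicate were used instead, the promoter share in the 8 genes was 11.8%, 15.1% and 13.4% for replicates 1, 2 and 3 (mean 13.4 ± 1.65, SD, n = 3). The 8 genes are long, and the part of their length in the low promoter share was not tested.

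Of the 24 annotated TSSs of the 8 genes, 11 had an IDR summit within 500 bp. They belonged to 7 of the 8 genes, osa being the exception. Over all coding genes 2592 had such a summit (18.6%). The 8 genes were picked for number or strength of peaks, so this share is given only as background. The nearest TSS of 53 of the 131 peaks belonged to another gene that lies within or beside the region. The numbers were 19 of 20 in jing, 5 of 8 in osa and 18 of 30 in sbb. They were 1 of 2 in nej, 4 of 22 in tara, 4 of 25 in Tet, 2 of 23 in Tlk and 0 of 1 in Chro. Peak lists do not tell on which gene a peak acts.

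**Figure D2:**
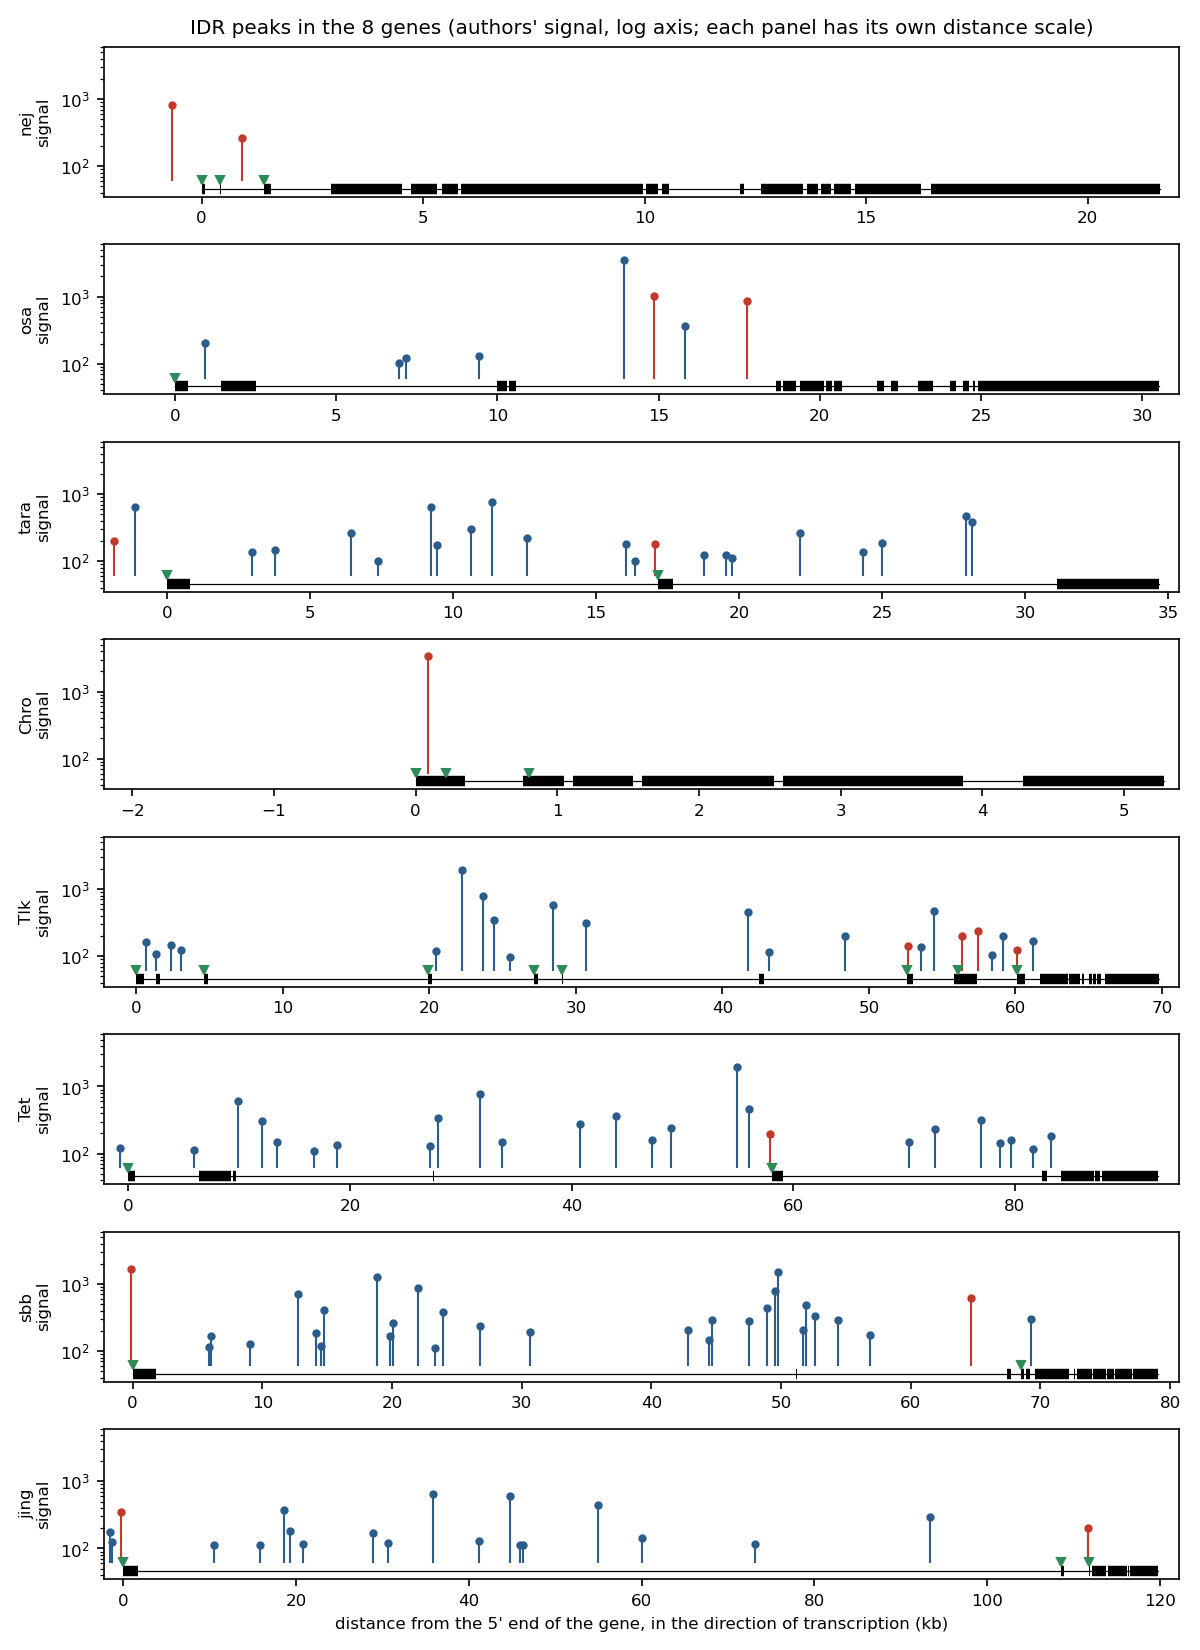
IDR peaks of each gene at their distance from the 5′ end in the direction of transcription (kb; each panel has its own scale), with stem height as the authors' signal on a log axis; red stems lie within 500 bp of any annotated TSS and blue stems do not. Black boxes are exons and green triangles are TSSs of the gene itself, and most stems stand over introns, 120 of 131.

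The first of the coactivators, nej, encodes the histone acetyltransferase CBP, which acetylates histone H3 and is recruited by many activators. Its gene (FBgn0261617, dm6 X, 9665442 to 9687066, minus strand) had 2 IDR peaks in a region of 23625 bp, 0.847 per 10 kb. Replicate lists 1, 2 and 3 placed 3, 2 and 3 peaks there (mean 2.67 ± 0.577, SD, n = 3). Of the 100 coding genes nearest in region length, 55 had fewer peaks and 31 had more, so nej was near the middle of its length class.

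Both nej peaks stood at its 5′ end and none in the remaining gene body. The stronger (9687537 to 9687928, signal 824, rank 531) ranked 614, 436 and 655 in replicates 1, 2 and 3. Its summit was at -675 bp from the first nej TSS (negative distances are upstream) and at -448 bp from the TSS of the divergent noncoding gene lncRNA:CR42657. The weaker (9685933 to 9686372, signal 263, rank 2997) ranked 3092, 3014 and 2756. It lay in intron 2 at -486 bp from the last of the 3 nej TSSs, the start of 2 of the 4 annotated transcripts. The G+C content at this summit was 22.8%, against 45.5% in its flanks.

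The osa gene encodes the ARID-domain subunit that defines the BAP form of the Brahma (SWI/SNF) nucleosome remodelling complex. It lies on 3R (FBgn0261885, 17687818 to 17718350, minus strand) and had 8 peaks, 2.46 per 10 kb. The replicate lists held 6, 11 and 10 (mean 9.0 ± 2.65, SD, n = 3), the lowest count being that of replicate 1. Among the 100 genes of nearest length, 90 had fewer peaks and 7 had more.

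No osa peak lay within 500 bp of the single annotated TSS. All 8 were in introns, 4 of them in intron 4 (17699704 to 17707770), and these were the 4 strongest of the gene. The strongest (17704197 to 17704671, signal 3460) ranked 13 in the IDR list and 12, 18 and 14 in replicates 1, 2 and 3. Its summit was 13938 bp downstream of the osa 5′ end and lay inside the noncoding gene lncRNA:CR46035, 717 bp downstream of the TSS of that gene. The peaks of rank 333 and 502 stood at -214 bp from the lncRNA:CR46035 TSS and -145 bp from that of lncRNA:CR46036. The strongest peak had 3.33 times the signal of the next in osa. Peaks in introns 1 and 2 were weak, with ranks of 4032 to 8228. The 2 weakest were not in the list of replicate 1, where the single peak overlapping both ranked 10217.

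The tara gene (taranis) encodes a SERTAD-family protein classed with the trithorax group, which keeps homeotic genes active. It lies on 3R (FBgn0040071, 16225651 to 16260329, plus strand) and had 22 peaks in 36679 bp. Its density of 6.00 per 10 kb was the highest of the 8 genes. The 3 replicate lists held 21, 21 and 22 (mean 21.3 ± 0.577, SD, n = 3). None of the 100 genes of nearest length had as many. Their highest count was 12 and their median 1, and the next shorter and longer genes, CG30089 and Doa, had 4 each.

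Peaks ran along both long introns of tara, 12 in intron 1 (16376 bp) and 8 in intron 2 (13448 bp), with a median of 942 bp between neighbouring summits. No single peak stood out. The strongest (16236727 to 16237137, signal 753, rank 627) ranked 550, 598 and 756 in replicates 1, 2 and 3, and the next IDR ranks were 803 and 822. In replicate 3 the order changed, and the peak at -1117 bp from the first TSS led with rank 657. A summit at -96 bp from the second TSS (signal 182, rank 4580) had 59.4% G+C, the highest of the gene. Some neighbouring summits of tara may belong to the same peak. In 4 pairs, 199 to 289 bp apart, both summits matched a single peak in each replicate, and 1 of these pairs shares the interval 16234676 to 16235110.

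Chro encodes Chromator, a chromodomain protein of polytene interbands and of the mitotic spindle matrix. It is the shortest of the 8 genes (FBgn0044324, 3L, 22873702 to 22878984, minus strand) and had 1 peak. The peak (22878679 to 22879145, signal 3390) ranked 15 in the IDR list and 14, 16 and 19 in replicates 1, 2 and 3. It was also the single relaxed peak of the region in every replicate. The summit lay in the first exon, at 86 bp from the first TSS and -130 bp from the second. The start of Ssl1, which encodes a subunit of the repair and transcription factor TFIIH, is on the opposite strand (22879089 to 22880963), so 1 peak covers the divergent promoter region. Chro thus combined 1 of the strongest peaks of the list with the lowest count among the 8 genes; 71 of 100 genes of like length had none.

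Tlk encodes Tousled-like kinase, which phosphorylates the histone chaperone Asf1. The gene (FBgn0283657, X, 3720007 to 3789770, plus strand) has 8 annotated TSSs and 14 transcripts. It had 23 peaks, 3.20 per 10 kb, and replicate counts of 18, 28 and 21 (mean 22.3 ± 5.13, SD, n = 3), the widest spread of the 8 genes. Even the lowest of these was above the next shorter and longer genes in length, Nlg3 with 0 and Ddr with 3 IDR peaks.

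Signal in Tlk was concentrated in intron 4. The strongest peak (3742007 to 3742442, signal 1940, rank 71) lay 2321 bp downstream of the nearest TSS and ranked 72, 73 and 87 in replicates 1, 2 and 3. A second peak of that intron had rank 572 and a peak in intron 5 rank 983. Summits stood near 3 of the 8 TSSs, at 45, 292 and -19 bp, and all 3 of these peaks were weaker, with ranks of 6008, 4135 and 6835. A stretch of 17398 bp from intron 2 to intron 4 had no summit. In intron 9 a peak of rank 3346 covered the microRNA gene mir-4962 (3777382 to 3777505). Its E-box window is the one printed above, with GAGAG or its complement at 4 places, 2 on each side of the E-box. Tlk also held the weakest peak of the 8 genes (signal 98.7, rank 8512).

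Tet encodes the single fly member of the TET dioxygenase family, an enzyme studied in flies for its action on adenine methylation of DNA and on RNA. The gene (FBgn0263392, 3L, 2786207 to 2879158, minus strand) had 25 peaks, 2.63 per 10 kb. Replicate counts were 25, 25 and 27 (mean 25.7 ± 1.15, SD, n = 3). Among the 100 genes of nearest length, 97 had fewer and 3 had more, 1 of the 3 being sbb. The next shorter and longer genes, nAChRalpha6 and Snoo, had 3 and 18.

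Intron 5 of Tet (30455 bp) held 10 peaks and intron 6 (23377 bp) held 6. The strongest (2823988 to 2824438, signal 1960, rank 70) stood at -3108 bp from the second TSS and ranked 61, 72 and 92 in replicates 1, 2 and 3. It had 2.55 times the signal of the next, which had rank 594. A peak at -110 bp from that second TSS had 65.3% G+C, the highest of all 131 summits, and rank 4176. At this weaker peak the replicate ranks were 6702, 3317 and 4157. The longest stretch without a summit, 12519 bp, followed downstream of it.

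The sbb gene (scribbler, also brakeless) encodes a nuclear corepressor that works with repressors such as Tailless. It had the most peaks of the 8 genes and the second most of all coding genes (FBgn0285917, 2R, 18278198 to 18357296, minus strand). There were 30 summits in 27 distinct intervals, 3.70 per 10 kb, and replicate counts of 32, 32 and 27 (mean 30.3 ± 2.89, SD, n = 3). None of the 100 genes of like length had as many, their highest being 25. Tet with 25 and Tlk with 23, chosen as sbb was, are among these 100. Its closest neighbours in length, para and pros, had 1 and 2.

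Of the 5 genes with 20 or more peaks, sbb was the one with its strongest peak at a promoter. This peak (18357249 to 18357660, signal 1660, rank 106) lay at -155 bp from the first TSS by its summit and ranked 116, 107 and 101 in replicates 1, 2 and 3. An intron 1 peak was nearly as strong, with a signal of 1490 and rank 138, and the next in that intron had rank 227. Intron 1 (49364 bp) held 22 of the summits and intron 2 (16180 bp) held 6. These introns contain whole genes, among them Tango8 and CG14505, whose TSSs were nearest to 9 and 6 of the summits. Replicate support was the broadest among the genes with many peaks, with 28 of 30 overlapped in all 3 replicate lists. The sbb peaks were also the strongest of these genes by median rank, 2680 against 4480 in tara to 5350 in jing. In 6 pairs of sbb summits under 250 bp apart, both summits matched the same replicate peaks, and both are counted in the 28.

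The jing gene encodes a zinc finger protein related to the mammalian PRC2 cofactor AEBP2 and acts in border cells, tracheae and glia. It is the longest of the 8 (FBgn0086655, 2R, 6502006 to 6621792, plus strand) and had 20 peaks, 1.64 per 10 kb. The replicate lists held 21, 19 and 16 (mean 18.7 ± 2.52, SD, n = 3). Among the 100 genes of nearest length, 94 had fewer peaks and 6 had more, with a median of 4. The next shorter and longer genes, CG43867 and Glut4EF, had 4 and 15.

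The peaks of jing were widely spaced, and no single peak stood out. Signals ran from 652 down to 111, with a median of 158. Intron 1 (106798 bp) held 16, and the median distance between neighbouring summits was 5095 bp. The strongest (6537693 to 6538001, signal 652) had rank 805 and the next (signal 616) rank 888. Replicates 1 and 2 kept this order, with 704 against 821 and 826 against 1003. Replicate 3 reversed it, with 1011 against 975. A weaker peak (signal 348, rank 2101) at -218 bp from the first TSS and -16 bp from that of the divergent lncRNA:CR46075 held the one C-box found among the 131 windows. Support was the lowest of the 8 genes, with 10 of 20 peaks overlapped in all 3 replicate lists.

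Strongest peaks thus fell into an upper and a lower range of ranks. In osa, Chro, Tet, Tlk and sbb the strongest peak ranked 106 or better in the IDR list and 116 or better in every replicate. In nej, tara and jing it ranked 531 to 805, and from 436 to 1011 in the replicates. The ranges of these sets did not overlap in any replicate. The sets were split by rank in a list pooled over the same replicates, so this is a description and no independent check. Among all coding genes 137 (0.982%) had a peak of rank 100 or better, and osa, Chro, Tet and Tlk are 4 of them. Chro with 1 peak and osa with 8 had ranks 15 and 13. Tet with 25, Tlk with 23 and sbb with 30 had ranks 70, 71 and 106. The ranks of nej with 2, tara with 22 and jing with 20 were 531, 627 and 805. The genes were picked for number or strength of peaks, so how rank relates to number cannot be read from them.

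**Figure D3:**
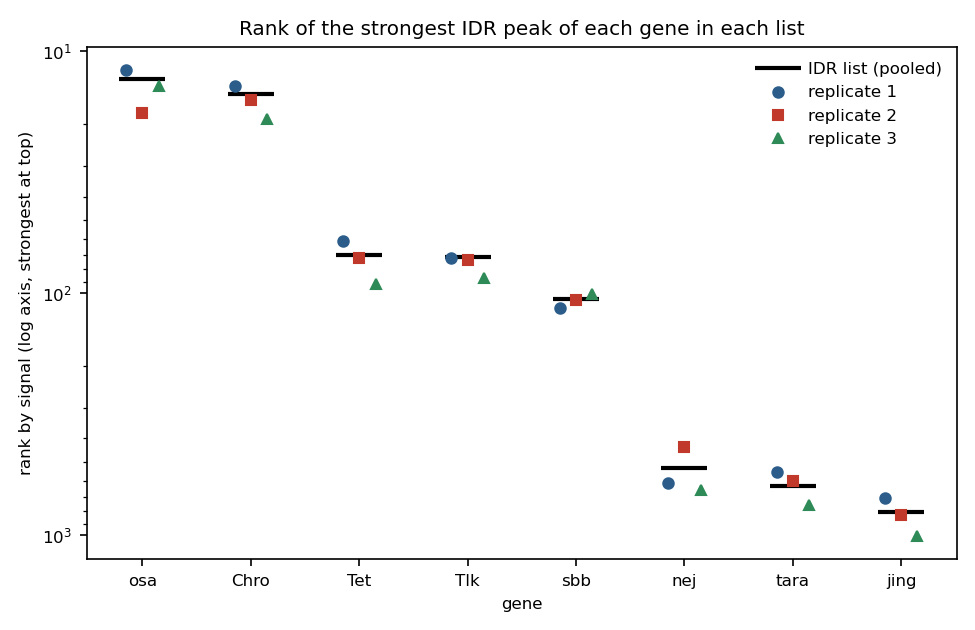
Rank by signal (log axis, strongest at the top) of the strongest IDR peak of each gene, as a bar for the pooled IDR list and a point for the overlapping peak in each of the 3 replicate lists. The points of osa, Chro, Tet, Tlk and sbb lie between ranks 12 and 116 and those of nej, tara and jing between 436 and 1011.

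Peaks of the 8 genes were closer together than IDR peaks at large. The median distance between neighbouring summits within a gene was 1754 bp over 123 gaps, against 4043 bp over all IDR peaks. In the replicate lists it was 1803, 1411 and 1657 bp (mean 1620 ± 198, SD, n = 3). Many peaks in a region of fixed length make short gaps, so this follows in part from how the genes were chosen. Medians ran from 942 bp in tara through 1090 bp in Tlk and 1679 bp in sbb to 2251 bp in Tet and 5095 bp in jing. Gaps under 250 bp made up 10 of the 123 (8.13%) against 6.31% over all IDR peaks, and 9 of them measured 199 to 210 bp. In all, 22 of the 131 peaks matched the same replicate peaks as another of the 131, so their replicate ranks are shared and they may be parts of 1 peak.

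Replicate support in the 8 genes was close to that of the whole list. Peaks overlapped in the lists of all 3 replicates numbered 97 of 131 (74.0%), against 6262 of 8513 (73.6%). A further 26 were overlapped in 2 lists and 8 in 1, so every one of the 131 was overlapped in at least 1 list. By replicate the overlapped peaks numbered 114, 121 and 116. Support tracked strength. All 31 peaks of ranks 1 to 1703 were found in all 3 lists, and all 25 of ranks 1704 to 3406. Below these the numbers were 23 of 26 for ranks 3407 to 5108, 12 of 21 for 5109 to 6811 and 6 of 28 for 6812 to 8513. As shares these last 3 groups had 88.5%, 57.1% and 21.4%, and over all IDR peaks the same groups had 94.2%, 60% and 16.6%. Across the 131 peaks the replicate ranks had a Spearman correlation of 0.888 between replicates 1 and 2, 0.838 between 1 and 3 and 0.873 between 2 and 3. These are descriptions, since the points share a control and were taken from a list pooled over the same replicates.

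The peaks nearest the IDR threshold show how its place sets the counts. The weakest inside were 2 tara peaks (signals 101 and 100, ranks 8373 and 8412) and the Tlk peak of rank 8512. Just outside were a Tlk peak (98.1, rank 8562), an sbb peak (95.5, rank 8804) and a Tet peak (95, rank 8842). The pooled relaxed list of 30000 peaks held 336 in the 8 genes, of which 39.0% passed the threshold, against 28.4% of the whole list. The genes were picked for number or strength of peaks, so this difference follows in part from their choice. The share was lowest in jing, with 25.3% of 79.

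The summits of the 8 genes lay in dips of G+C content, a feature the choice of genes did not use. Mean G+C within 50 bp of the summit was 35.1% and in windows centred 500 bp to each side 43.3%, a difference of -8.20 percentage points. Over all 8513 IDR peaks the values were 33.6%, 43.3% and -9.72. In the replicate lists the difference in the 8 genes was -9.32, -7.56 and -7.10 (mean -8.00 ± 1.17, SD, n = 3). G+C was lower at the summit than in the flanks for 94 of the 131 peaks (71.8%) and for 79.5% of all IDR peaks. From the strongest to the weakest of the 5 groups by rank, mean G+C at the summit was 29.9%, 34.4%, 37.2%, 34.3% and 40%. Over all IDR peaks it was 31.1%, 32.4%, 33.9%, 34.9% and 35.6%, so the lowest mean stood in the strongest group in both.

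The dip differed in depth and level among the genes. Mean G+C was 36.1% at tara summits and 48.1% in their flanks, and 39.0% and 44.8% in jing. In sbb it was 32.4% and 41.7%, in Tet 33.9% and 42.5%, and in Tlk 35.2% and 40.0%. Tlk had the smallest mean difference of these 5 genes, and 13 of its 23 summits had less G+C than their flanks. The range over single summits, from 20.8% in Tet and sbb to 65.3% in Tet, was wider than that between gene means. Peaks of 1 gene are not replicates, so no error is attached to these means.

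**Figure D4:**
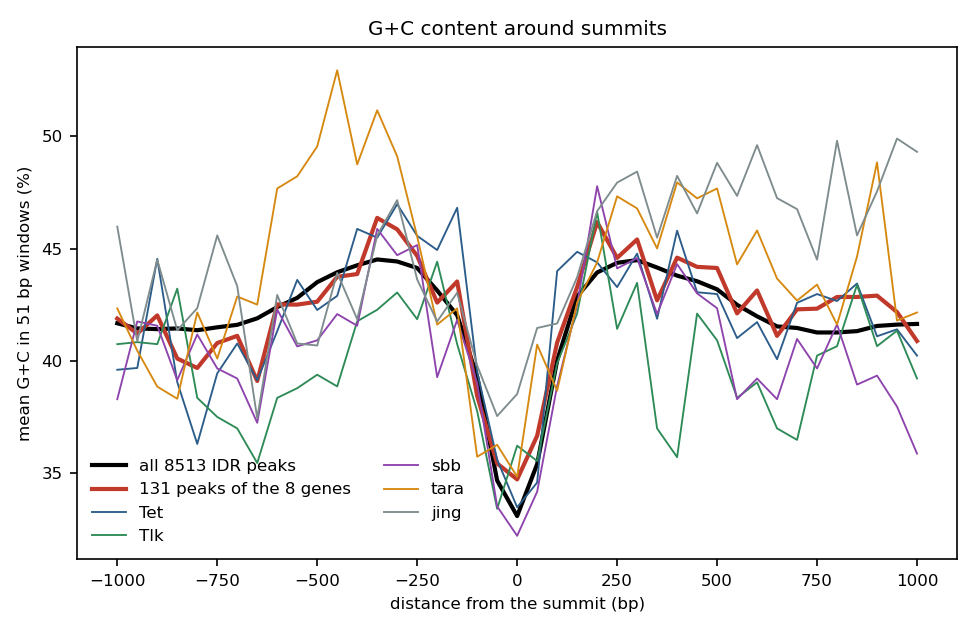
Mean G+C content (%) in windows of 51 bp at distances of up to 1000 bp from the summit, for all 8513 IDR peaks in black, the 131 peaks of the 8 genes in red, and the 5 genes with 20 or more peaks as thin lines. The red line dips at the summit as the black one does, and the thin lines, each a mean of 20 to 30 peaks, scatter widely away from it.

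Few windows held a motif known for Met or its relatives. The search used exact letters on both strands within 50 bp of the summit. The E-box CACGTG was in 3 of the 131 windows (2.29%), in Tet, Tlk and jing, against 0.787% of all IDR peaks. The C-box CACGCG was in 1 (0.763%), against 1.42%. The bHLH-PAS core GCGTG, which the C-box contains in its complement, was in 5 (3.82%), against 7.02%. In all, 127 of the 131 windows had neither E-box nor C-box, as did 8327 of the 8513 over the whole list.

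Other E-box forms were found at similar low shares. CAGCTG was in 6 windows (4.58%, against 2.90% of all IDR peaks), CATATG in 4 (3.05%, against 3.88%) and CACCTG in 3 (2.29%, against 2.36%). GAGAG, the core of sites of the GAGA factor, was in 16 (12.2%, against 10.3%), of which 6 were in Tlk. The CA repeat CACACA was also in 16 (12.2%, against 6.85%). No test was made of these shares, since peaks of a gene are not independent.

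The remaining motifs rested on few windows or had shares near those of all IDR peaks. CGATA, which the promoter element DRE contains, was in 13 windows (9.92%, against 12.1%), the whole DRE in 1, in Tlk. The promoter element called motif 1 was in 0, against 0.364%, and the Zelda motif CAGGTAG in 1 (in tara), against 0.423%. TGANTCA, bound by AP-1, was in 2 (1.53%, against 2.70%) and AGATAA in 10 (7.63%, against 8.11%). AAAAAA was in 40 (30.5%, against 28.7%) and TATAAA in 27 (20.6%, against 22.4%). A match is only a match of letters, and its absence says nothing of the factor.

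Other genes of the same complexes and pathways were counted in the same way. Of 128 related genes other than the 8, 47 had an IDR peak (36.7%) and 36 had one within 500 bp of a TSS of their own (28.1%). Over all coding genes these shares were 28.7% and 18.6%, so the related genes were above both, and no test was made. Of these genes 3 had 10 or more peaks, against 110 of all coding genes (0.789%), and none had 20 or more. The related genes are shorter than most of the 8 but longer than coding genes at large, with a median region of 6190 bp against 4166 bp. The part of length in their higher shares was not tested. The lists were drawn up with earlier results of these data known.

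Among activators and remodellers, 2 of 9 other Brahma subunits had a peak, mor with 3 and the ATPase brm with 1 (rank 488). Of 13 other nucleosome remodellers 5 had one, led by Mi-2, the NuRD ATPase, with 6 peaks and a best rank of 94, and kis with 5. Of 12 other acetyltransferases and coactivators 5 had one. The highest number was in tai (taiman), a bHLH-PAS coactivator that pairs with Met in mosquitoes, with 14 peaks and a best rank of 216, followed by chm with 5. In Mediator, which links factors to RNA polymerase II, 7 of 28 genes had one, and skd had the most with 6.

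Among corepressors and deacetylases 8 of 11 genes other than sbb had a peak (72.7%), against 28.7% of all coding genes. Genes of this list had a median region of 10968 bp, and the part of length in the count was not tested. The share was the highest of any list, and the next was 54.5%, for interbands and insulators. The shares for histone chaperones and assembly (20%), Brahma subunits (22.2%), Mediator (25%) and methylation genes (25%) were below that of all coding genes. Smr, the nuclear receptor corepressor, had 10, Gug 6 and HDAC4 4. Of 17 Polycomb genes 5 had one, and ph-p and phol had peaks of rank 33 and 59. Of 13 trithorax-group and H3K4 genes 7 had one. There psq, which binds GAGA sequences, had 19, the most of the related genes, trx had 6, and Trl, the gene of the GAGA factor, had 4 with a best rank of 50.

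Near the partners of the other genes, 6 of 11 genes of interbands and insulators had a peak. JIL-1, a histone H3 kinase that binds Chromator, had 3. Of 10 genes for histone chaperones and assembly 2 had one, Daxx with 2 and Spt6 with 1, and asf1, whose product Tlk phosphorylates, had 0. Of 8 genes for cytosine or RNA adenosine methylation 2 had one, fl(2)d with 2 and Mettl3 with 1. In no list did the median number of peaks, leaving out the 8 genes, pass 2.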

How the data were processed

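Met was measured by ChIP-seq in 3 biological replicates of white prepupae, grouped and numbered by the labels. Per the text listings deposited with the libraries, relaxed lists of 30000 peaks (1 per replicate and 1 for the pool) used a shared control. The authors made the IDR-thresholded list from these. Which aligner and peak caller were used is not given in the sources used here. Deposited signal values (column 7) are the authors' own per peak and were used to rank peaks within a list. The 8513 IDR peaks are the 8513 strongest pooled peaks. Replicate lists were taken to their 8513 strongest peaks, and overlap was at least 1 bp. Of these, 8513, 8497 and 8506 lay on the 6 major arms.

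Genes came from Ensembl release 115 (BDGP6.54) and sequence from RefSeq Release 6, both in dm6 coordinates, which are 1-based. Introns are gaps between the merged exons of a gene, counted from its 5′ end. Genes of like length are the 100 coding genes nearest in region length. They leave out the gene itself but not the others of the 8. Python 3.11.15 with pandas 2.3.3 and numpy 2.4.6 was used, and the counting was tested on simulated peaks. No test was run, since the 8 genes and the lists of related genes were chosen with earlier results of these data known. The text names the 8 genes, genes whose TSS is nearest to their peaks, the next shorter and longer genes, and in each list up to 3 genes with most peaks and those of rank 100 or better. Of 140 symbols in the lists 136 matched the annotation. The alternatives were other reaches, overlap rules, TSS distances, windows and lists. Lists in build dm3 were not used here.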

Additional observations from a re-analysis of the deposited data

How the results depend on the processing

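The count of 131 peaks ranged from 123 to 134 with the gene body alone or 5 kb upstream, and from 127 to 139 in the replicate lists. It was 78 without peaks nearest to the TSS of another gene and 69 among the 4256 strongest IDR peaks. Without each replicate in turn, the peaks kept were those of the pooled list overlapped in both other replicate lists, 102 to 108. This is not a new peak call. As shares of the 131 these counts are the 77.9% to 82.4% given next for support. Support in all 3 replicates was 55.7% with a reciprocal overlap of 50%, 100% against the whole relaxed lists and 98.6% among the 4256 strongest, and 77.9% to 82.4% without each replicate, where overlap in fewer lists is asked. The promoter share was 9.16% within 250 bp, 24.4% within 1000 bp, 7.63% for TSSs of the gene itself, 15.1% in the list of replicate 2, 18.8% among the 4256 strongest and 13.7% to 14% without each replicate. Median spacing was 1411 bp in the list of replicate 2, 2797 bp among the 4256 strongest, where fewer peaks remain, and 1942 to 2050 bp without each replicate. The G+C difference was -6.47 with flanks at 1000 bp, -10.8 among the 4256 strongest and -8.82 to -8.50 without each replicate. The median rank of the 8 strongest peaks, 88.5, was 94 and 96.5 in replicates 1 and 3, and 366 without peaks nearest to the TSS of another gene, which takes from osa, nej and jing their strongest. Where no cause is given, the cause was not tested.

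No paired analysis was possible because there was 1 group and no test. The main limits are the unknown depth, the shared control, the pooled source of the IDR list, and the assignment of peaks to long genes that contain other genes.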
